A study of Mus musculus with 13 samples.

Results

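Autophagy and lysosome genes were followed in the whole pancreas of 13 female mice. The set holds 33 genes of the 23366 in the expression table and was chosen by name, as known genes of these pathways. It covers 5 genes of the lysosomal membrane and of cholesterol export, 7 cathepsins, 2 glycosidases with the activator precursor Psap, 2 subunits of the proton pump, the transcription factors Tfeb and Tfe3, 5 genes of autophagy initiation and nucleation, 4 genes of the conjugation machinery, and 4 Atg8-family genes with the cargo receptor Sqstm1. All 33 had a row in the table.

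The mice were of the i4F-B strain, and all 3 groups carried its ubiquitous, cassette, inserted in the Pparg gene, from which doxycycline induces Oct4, Sox2, Klf4 and Myc (OSKM). Young mice were 13 weeks old (n = 4) and old mice 55 weeks old (n = 5), and neither group received doxycycline. Old-OSKM mice (n = 4) received doxycycline in the drinking water for 1 week and recovered without it for 2 weeks, and their labels give an age of 58 weeks at sampling. No old mouse in the set received doxycycline without the cassette, so that OSKM, doxycycline and the additional weeks of age cannot be told apart. Total RNA depleted of ribosomal RNA was sequenced from 1 library per mouse, and expression was given as log2 RPKM (reads scaled to gene length and library size), so that 1 unit is a doubling. The study states a read number for its samples in common, and the depth of each single library is not given in the sources used here.

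Autophagy delivers cytoplasm and organelles to the lysosome. The kinase Ulk1 and the Becn1 lipid-kinase complex start the double membrane, a conjugation system of Atg proteins attaches LC3 and GABARAP proteins to it, and receptors such as Sqstm1 (p62) bring in the cargo. The closed vesicle then fuses with a lysosome, an organelle acidified by the V-ATPase proton pump and filled with hydrolases such as the cathepsins. In acinar cells, which make up most of the exocrine pancreas, these enzymes have a further known role, since cathepsin B can activate trypsinogen whereas cathepsin L degrades it. Tfeb and Tfe3 are transcription factors that bind the CLEAR element of many lysosomal promoters, the core of which is the letters CACGTG.

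The promoters are shown first, for the members that have a window. RefSeq (GRCm38.p6) promoter windows, from 250 bases before to 50 bases after an annotated start, were at hand for 24 of the 33 genes. Those without a window were Npc1, Ctsb, Ctsh, Atp6v1h, Rb1cc1, Becn1, Atg12, Atg16l1 and Map1lc3a. CACGTG, which reads the same on both strands, occurred in 9 of the 24 (37.5%), in 26 of the 109 windows of a wider list of lysosome and autophagy genes (23.9%) and in 9.20% of the 17736 genes of the table with a window. The longer TCACGTG, which contains CACGTG and was searched on both strands, occurred in 7 of the 24 (29.2%), 24 of the 109 (22.0%) and 5.11% of all genes. The 100 bases before the start are given for Lamp1, Mcoln1 and Ctsd, which hold 4, 2 and 1 copies there, and for Ctss and Psap, the members with the largest differences in old-OSKM mice, which hold none in their windows. Capitals mark CACGTG.
Lamp1, chr8:13159061-13159160, plus strand: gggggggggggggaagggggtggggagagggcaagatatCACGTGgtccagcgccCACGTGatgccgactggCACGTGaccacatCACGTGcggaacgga
Mcoln1, chr8:3500419-3500518, plus strand: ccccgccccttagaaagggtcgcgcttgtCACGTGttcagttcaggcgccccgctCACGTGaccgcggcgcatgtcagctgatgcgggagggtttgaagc
Ctsd, chr7:142387828-142387927, minus strand: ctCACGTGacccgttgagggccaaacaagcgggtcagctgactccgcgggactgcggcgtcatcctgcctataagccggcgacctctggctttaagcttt
Ctss, chr3:95526686-95526785, plus strand: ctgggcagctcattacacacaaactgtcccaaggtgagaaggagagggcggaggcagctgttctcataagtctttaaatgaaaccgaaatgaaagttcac
Psap, chr10:60277528-60277627, plus strand: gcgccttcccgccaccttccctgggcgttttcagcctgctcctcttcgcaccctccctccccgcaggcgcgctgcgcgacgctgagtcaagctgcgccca
Single or further copies lay in the windows of Ctsa, Gaa, Atp6v0d1, Atg7, Ctsl and Atg5, the last 2 as CACGTG without the flanking T. These letters mark a match, not a bound site.

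All 33 genes had a mean above 0 on the log2 RPKM scale, as did 36.0% of all genes. The highest were Gabarap, an Atg8-family protein, at 4.14 ± 0.14 (SD over 13 mice), Lamp1, a major glycoprotein of the lysosomal membrane, at 4.12 ± 0.08, the cysteine protease Ctsl at 4.0 ± 0.13, Psap, the precursor of the saposins that help to degrade sphingolipids, at 3.87 ± 0.35, and the aspartic protease Ctsd at 3.86 ± 0.09. The order among them was not fixed, since Gabarap exceeded Lamp1 in 8 of 13 mice and Psap exceeded Ctsd in only 3. Lamp1 exceeded Ctsl in all 13 mice, and Ctsd exceeded Lamp2, the next below it, in all 13 as well. The lowest were Npc1, the cholesterol exporter of the lysosomal membrane, at 0.42 ± 0.17, Tfeb at 0.44 ± 0.21 and Mcoln1, a calcium channel of the lysosome, at 0.63 ± 0.18. At these levels neighbours overlapped: Tfeb exceeded Npc1 in 10 of 13 mice.

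Before the comparisons, 2 libraries need description. Old-OSKM mice 1 and 4 stood apart from the other 11 mice. Macrophage markers (Adgre1, Csf1r, Aif1, Cd14, Lyz2, C1qa, C1qb, C1qc, Mrc1 and Cd68) were above the other 11 mice in both for 9 of 10 genes, and the mean log2 RPKM of 9 of them, without the lysosomal gene Cd68, was 2.08 in mouse 1 and 1.53 in mouse 4, against 0.68 and 0.70 in old-OSKM mice 2 and 3, 0.09 to 0.88 in old mice and 0.40 to 1.00 in young mice. Adipocyte markers were likewise above those 11 in both mice for 4 of 5 genes. Their mean log2 RPKM was 0.45 in mouse 1 and -0.38 in mouse 4, against -2.61 to -1.52 in the other 11. Mouse 1 was also above those 11 in all 6 B and plasma cell and all 5 measured T cell markers. Mouse 4 was above them in 5 of 5 adipocyte, 5 of 6 islet, 4 of 6 duct, 4 of 6 fibroblast and stellate and 4 of 5 endothelial markers. Mouse 4 gave the lowest of the 13 values for 44.8% of all genes. Acinar markers, the defining genes of the labelled tissue, averaged between 8.21 and 8.36 in every mouse. Ctrb1 and Cela2a had the same value in all 13 mice, since the normalization fixes the top ranks, so that this average checks the tissue and not changes in its acinar content. In whole tissue, fewer cells of a type and less RNA per cell cannot be told apart.

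**Figure D1:**
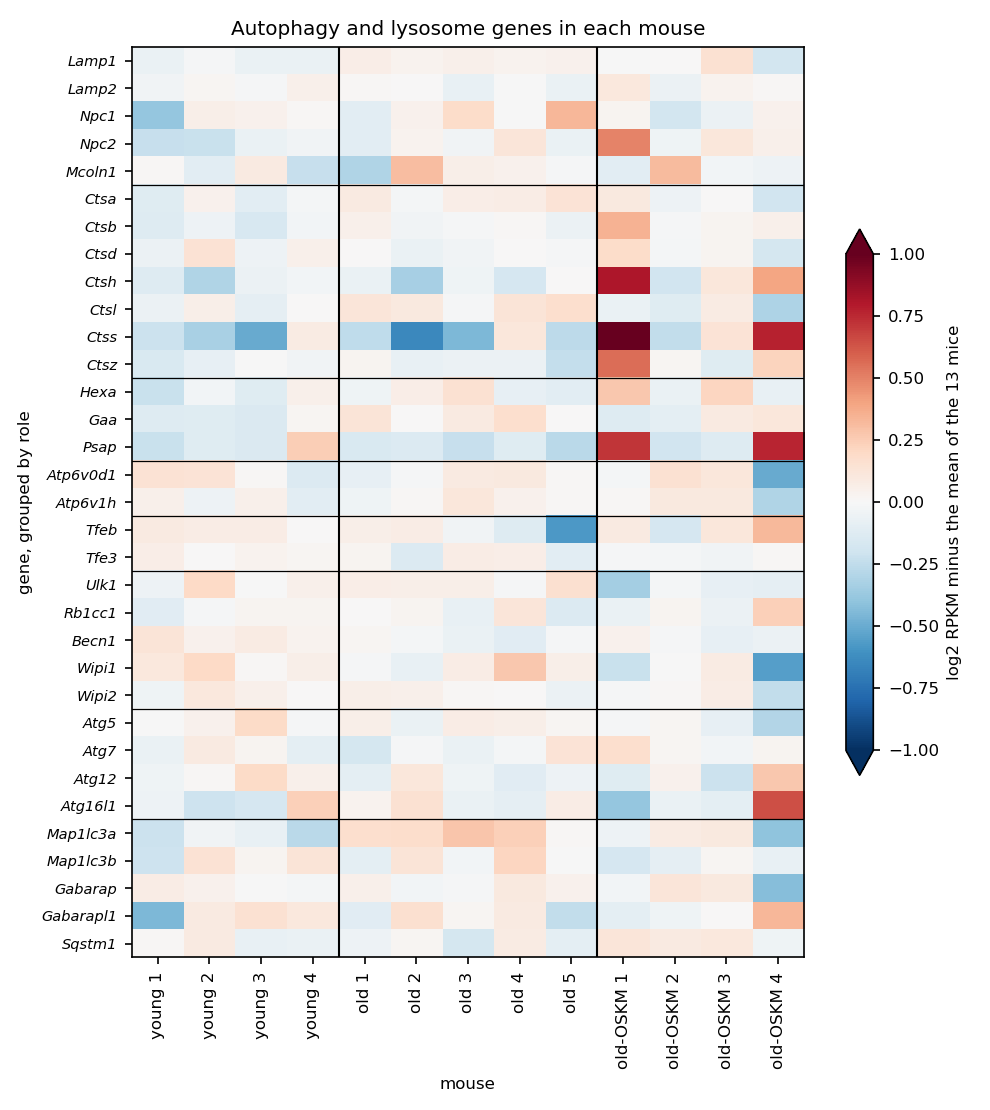
Log2 RPKM of the 33 genes in each of the 13 mice, as the difference from the gene's mean over all mice (color scale in log2 units, values past 1 shown at the end of the scale). Horizontal lines separate the roles and vertical lines the groups; the strongest colors are in old-OSKM mice 1 and 4, where Ctss, Psap and Ctsh are above the other 11 mice.

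The first comparison, old against young, addresses how normal aging changes these genes in the pancreas. No member was called by the definition of differential expression used in the study, a fold change over 1.5 with a raw p under 0.01 in limma, which 0.886% of all genes met. None had an adjusted p under 0.05 (smallest 0.60, and 0.0813% of all genes did). A raw p under 0.05 was found for 3 of 33 (9.09%), beside 5.52% of all genes and 6.36% of the genes with a mean log2 RPKM above 0; 2 were higher (3.0% of all genes) and 1 lower (2.52%). The median log2 difference of the members was 0.01 and that of all genes 0.00, 18 members (54.4% of all genes) had a positive difference, and 32 of the 33 differences lay within 0.2 of 0. The 95% interval of the difference stayed within 1.5-fold in either direction for 32 members, Ctss being the exception.

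The largest of these differences was that of Map1lc3a (Entrez 66734, chr2:155276364-155278073), which encodes the autophagosome protein LC3A. Its log2 RPKM was 1.86, 2.05, 2.00 and 1.81 in young mice, 2.24, 2.25, 2.36, 2.31 and 2.09 in old mice and 2.02, 2.16, 2.17 and 1.68 in old-OSKM mice. Every old mouse was above every young mouse. The difference was 0.32 ± 0.10 (SE; 1.25-fold, 95% interval 1.07 to 1.46; adjusted p = 0.60 in limma), under the 1.5-fold limit. Among mice with sample numbers 609 to 621 (4 old and 2 young) it was 0.34, and among those with 641 to 643 (1 old and 2 young) it was 0.18. The other Atg8-family members had small mean differences with age, with values of 0.02 for Map1lc3b and 0.01 for Gabarap and for Gabarapl1, and Sqstm1 had -0.04. That of Gabarapl1 was imprecise (95% interval -0.29 to 0.31). It was 0.22 among numbers 609 to 621 and -0.38 among 641 to 643.

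Gaa (Entrez 14387, chr11:119267963-119285458), the lysosomal acid alpha-glucosidase that degrades glycogen, was at 1.48, 1.49, 1.47 and 1.63 in young, 1.74, 1.62, 1.70, 1.78 and 1.62 in old and 1.48, 1.51, 1.70 and 1.72 in old-OSKM mice. Only young mouse 4 reached into the range of the old mice. The difference between old and young was 0.17 ± 0.07 (SE; adjusted p = 0.74 in limma), 0.22 and 0.07 within the 2 runs of sample numbers. Becn1 (Entrez 56208, chr11:101288258-101302286), the Beclin 1 subunit of the lipid-kinase complex, was at 2.00, 1.91, 1.94 and 1.90 in young, 1.89, 1.85, 1.80, 1.76 and 1.85 in old and 1.91, 1.85, 1.79 and 1.81 in old-OSKM mice. Old mice were all below young mice, by a margin smaller than 0.1 between the nearest mice. The difference was -0.11 ± 0.04 (SE; adjusted p = 0.77 in limma), and -0.13 and -0.07 within the runs.

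Lamp1 (Entrez 16783, chr8:13159161-13175338) was the third member whose young and old values did not overlap, at 4.06, 4.11, 4.06 and 4.06 in young and 4.19, 4.16, 4.17, 4.16 and 4.17 in old mice. Its difference was 0.10 ± 0.06 (SE), with an adjusted p of 1.00 in limma. This SE rests on a variance shared by all 3 groups and is not the spread of old and young mice alone. The SD of Lamp1 was 0.03 in young, 0.01 in old and 0.14 in old-OSKM mice. Non-overlap of old and young was seen in 3 of 33 members and in 2.71% of all genes. The 7 cathepsins ranged from -0.06 for Ctss to 0.12 for Ctsl, and none had a raw p under 0.05. Tfeb was at 0.53, 0.52, 0.52 and 0.45 in young and 0.51, 0.51, 0.41, 0.31 and -0.13 in old mice, with old mouse 5 below the rest, a difference of -0.18 ± 0.13 (SE). Tfe3 was at 1.38, 1.32, 1.34 and 1.33 in young and 1.34, 1.18, 1.39, 1.37 and 1.20 in old mice, a difference of -0.05.

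**Figure D2:**
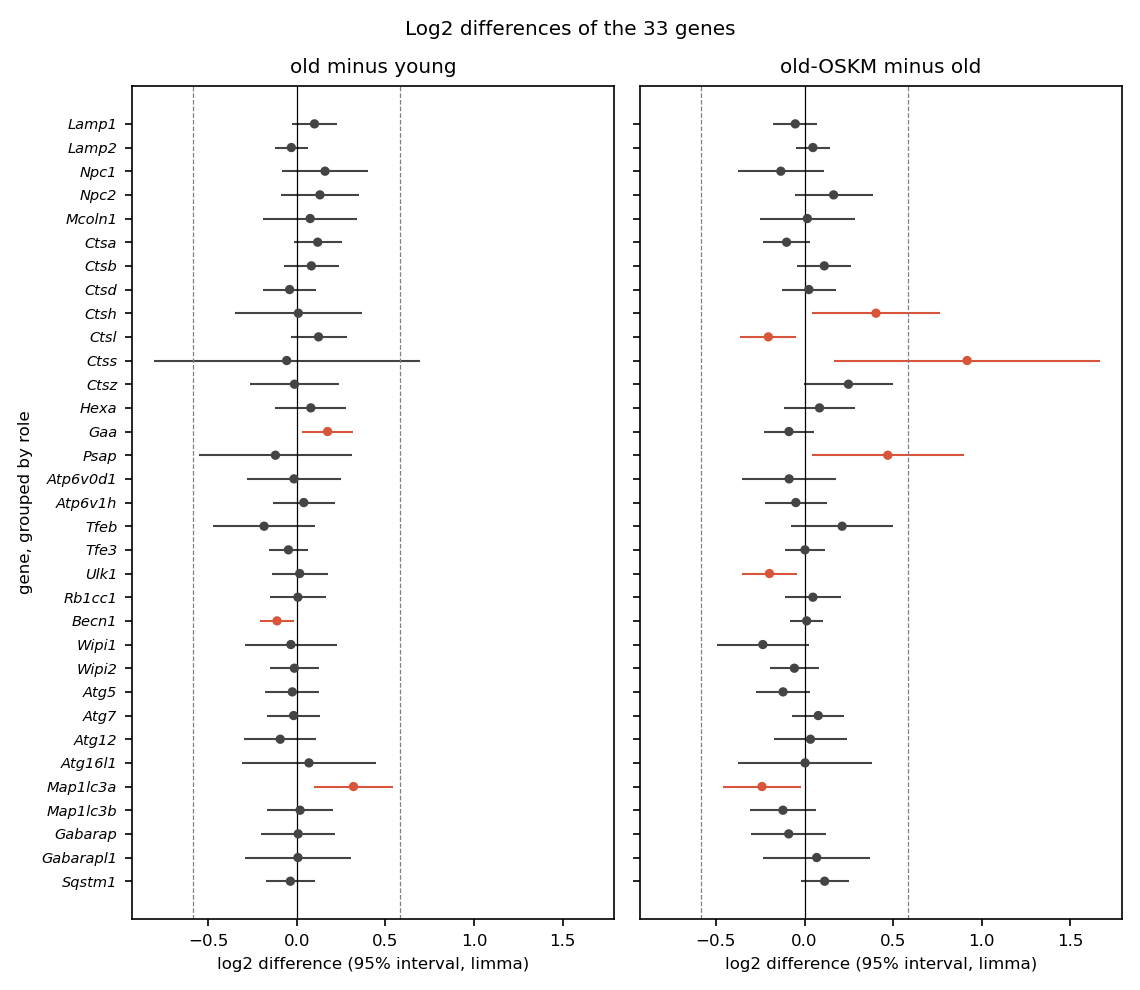
Log2 differences of the 33 genes for old minus young (left) and old-OSKM minus old (right), with points at the estimate and lines over the 95% interval from limma. Red marks a raw p under 0.05, and dashed lines mark 1.5-fold; 3 genes are red on the left and 6 on the right, and the estimate for Ctss is the only one past a dashed line.

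The second comparison, old-OSKM against old, addresses what remained 2 weeks after a single cycle of OSKM induction. Again no member was called, beside 0.753% of all genes, and none had an adjusted p under 0.05 (smallest 0.55, and 0.00428% of all genes did). A raw p under 0.05 was found for 6 of 33 members (18.2%), 3 higher and 3 lower, beside 8.07% of all genes (3.98% higher and 4.08% lower) and 8.18% of those with a mean log2 RPKM above 0. The median difference was 0.01 for members and -0.04 for all genes. Of the members, 19 had a positive difference, beside 36.9% of all genes, and 25 lay within 0.2 of 0. The 36.9% was taken over genes of all levels, whereas all 33 members had a mean log2 RPKM above 0, so that the 2 shares are not matched for level. Without old-OSKM mice 1 and 4, an alternative chosen after seeing the data, the count of raw p under 0.05 was 0. Without old-OSKM mouse 2, the reverse case, 2 members passed the definition, Ctss (log2 difference 1.21) and Psap (0.63), both with an adjusted p of 0.38 in limma, and 10 had a raw p under 0.05. No share of all genes was taken with these mice left out. These counts therefore do not show a trait particular to the members.

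The 3 members that were higher with a raw p under 0.05 were Ctss, Psap and Ctsh. Ctss (Entrez 13040, chr3:95526786-95556405) encodes cathepsin S, a protease of antigen-presenting cells that trims the MHC class II invariant chain. Its log2 RPKM was 1.16, 1.05, 0.87 and 1.46 in young mice, 1.13, 0.73, 0.93, 1.49 and 1.12 in old mice and 3.20, 1.13, 1.51 and 2.15 in old-OSKM mice. Mice 1 and 4 were above all others, mouse 3 was just above the highest old mouse, and mouse 2 was inside the range of the old mice. The difference between old-OSKM and old was 0.92 ± 0.34 (SE; 1.89-fold, 95% interval 1.12 to 3.18; adjusted p = 0.55 in limma). It was 0.52 without mouse 1, 0.87 without mouse 4 and 0.24 (adjusted p = 0.98 in limma) without both.

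Psap (Entrez 19156, chr10:60277628-60302600) was at 3.65, 3.75, 3.72 and 4.12 in young, 3.72, 3.74, 3.64, 3.75 and 3.60 in old and 4.58, 3.68, 3.74 and 4.63 in old-OSKM mice. Old-OSKM mice 2 and 3 lay inside the range of the old mice. The difference was 0.47 ± 0.20 (SE; adjusted p = 0.55 in limma) and 0.02 (adjusted p = 0.98) without mice 1 and 4. Ctsh (Entrez 13036, chr9:90054267-90076095), an aminopeptidase of the cathepsin family, was at 1.05, 0.88, 1.12 and 1.15 in young, 1.11, 0.85, 1.14, 1.01 and 1.18 in old and 1.99, 0.99, 1.30 and 1.57 in old-OSKM mice. The difference was 0.40 ± 0.16 (SE; adjusted p = 0.55 in limma) and 0.08 (adjusted p = 0.98) without both mice. Ctsz, a carboxypeptidase, was also highest in mice 1 and 4, at 2.54, 2.00, 1.86 and 2.20 in old-OSKM mice against 1.74 to 2.01 in old mice, with a difference of 0.25 whose raw p was over 0.05.

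Of the pair of cathepsins that act on trypsinogen, Ctsl was lower with a raw p under 0.05 and Ctsb had a raw p over 0.05. Neither was called. Ctsb (Entrez 13030, chr14:63122462-63145923) was at 2.81, 2.89, 2.78 and 2.91 in young, 2.99, 2.9, 2.93, 2.95 and 2.88 in old and 3.29, 2.93, 2.96 and 2.99 in old-OSKM mice, so that mouse 1 alone was far above the old mice. Its difference from old was 0.11 (adjusted p = 0.61 in limma), and all 4 old-OSKM mice were above all young mice. Ctsl (Entrez 13039, chr13:64361890-64370772) was at 3.94, 4.05, 3.91 and 4.0 in young, 4.12, 4.10, 3.98, 4.13 and 4.16 in old and 3.93, 3.87, 4.08 and 3.69 in old-OSKM mice. Old-OSKM mice 1, 2 and 4 were below all old mice and mouse 3 was not. The difference from old was -0.20 ± 0.07 (SE; 0.868-fold, 95% interval 0.778 to 0.968; adjusted p = 0.55 in limma), and -0.12 (adjusted p = 0.98) without mice 1 and 4. Whether Ctsb and Ctsl differed from each other in this respect was not tested.

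Among autophagy genes, Ulk1 (Entrez 22241, chr5:110784489-110810120) was at 1.42, 1.67, 1.46 and 1.52 in young, 1.53, 1.53, 1.53, 1.46 and 1.63 in old and 1.13, 1.45, 1.39 and 1.38 in old-OSKM mice. All 4 old-OSKM mice were below all 5 old mice, and Ulk1 was the only member without overlap in this comparison, beside 1.73% of all genes. The difference was -0.20 ± 0.07 (SE; adjusted p = 0.55 in limma), -0.13 (adjusted p = 0.77) without mouse 1 and -0.12 (adjusted p = 0.98) without mice 1 and 4. Map1lc3a was 0.24 ± 0.10 (SE) lower than in old mice (adjusted p = 0.55 in limma), with mouse 4 the lowest of the 13, and its difference was -0.08 (adjusted p = 0.98) without mice 1 and 4. Since both comparisons use the same old mice, the higher Map1lc3a in old than in young mice and the lower value in old-OSKM than in old mice are not independent of each other.

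The rest of the machinery gave no raw p under 0.05. Wipi1, which binds phosphoinositides on the growing membrane, was at 1.34, 1.55, 1.64 and 1.00 in old-OSKM mice against 1.48 to 1.83 in old mice, a difference of -0.24. Becn1, Rb1cc1 and Wipi2, of the same step, differed by 0.01, 0.05 and -0.06. The lysosomal membrane and cholesterol genes ranged from -0.13 for Npc1 to 0.16 for Npc2, and the glycosidases Hexa and Gaa differed by 0.08 and -0.09. The 4 conjugation genes Atg5, Atg7, Atg12 and Atg16l1 ranged from -0.12 to 0.08. The V-ATPase subunits Atp6v0d1 and Atp6v1h differed by -0.09 and -0.05 and were both lowest of the 13 mice in old-OSKM mouse 4. Lamp2, the membrane protein required for the fusion of autophagosomes with lysosomes, was at 3.46, 3.51, 3.49 and 3.55 in young, 3.51, 3.50, 3.43, 3.49 and 3.43 in old and 3.60, 3.44, 3.53 and 3.50 in old-OSKM mice, within 0.2 in all 13. Sqstm1 was at 3.42, 3.50, 3.33 and 3.34 in young, 3.35, 3.42, 3.23, 3.49 and 3.31 in old and 3.53, 3.50, 3.51 and 3.36 in old-OSKM mice, which lay 0.11 above old mice on average. Tfeb was at 0.53, 0.27, 0.56 and 0.77 and Tfe3 at 1.30, 1.29, 1.28 and 1.32 in old-OSKM mice, which put them 0.21 and 0.00 above old mice, with an adjusted p of 0.61 in limma for Tfeb. Among mice with sample numbers 609 to 621, which leaves out old mouse 5, the difference of Tfeb was 0.10. Tfe3 thus varied with an SD of 0.017 among old-OSKM mice, the smallest of the 33 in that group.

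**Figure D3:**
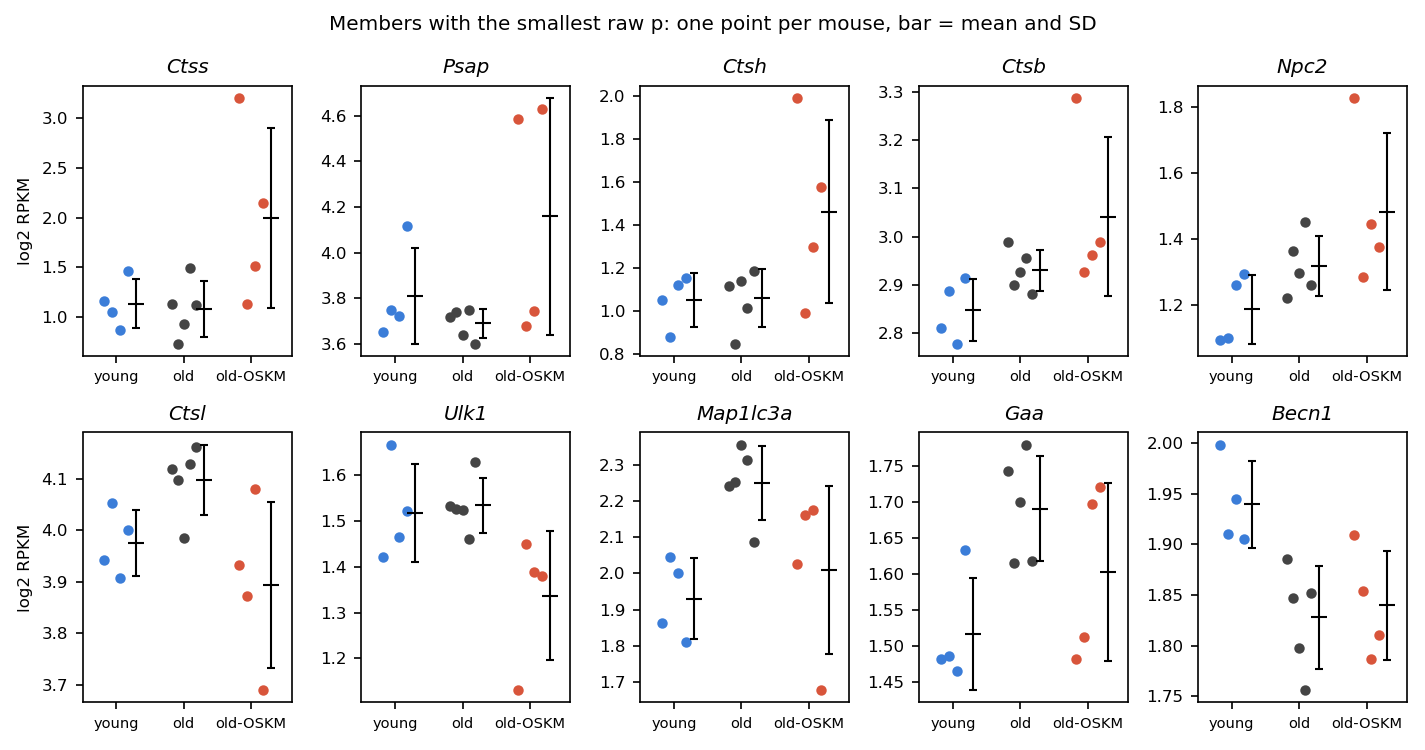
Log2 RPKM of 10 genes in each mouse, with a point per mouse and a bar at the mean and SD of the group (young n = 4, old n = 5, old-OSKM n = 4; axes do not start at 0). Ctss, Psap and Ctsh have 2 high old-OSKM mice beside 2 near the old mice, whereas Map1lc3a and Becn1 separate old from young.

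The third comparison, old-OSKM against young, asks how far the treated mice were from the young state and shares its mice with the first 2. No member was called, beside 0.625% of all genes, and 6 of 33 (18.2%) had a raw p under 0.05, beside 5.07% of all genes and 4.88% of those with a mean log2 RPKM above 0. The smallest adjusted p was 0.71, and an adjusted p under 0.05 was reached by 0.0428% of all genes. A positive difference was found for 20 members and 38.7% of all genes, and a raw p under 0.05 for 4 higher members (2.91% of all genes) and 2 lower (2.16%). The 38.7% was again not matched for level. Higher were Ctss by 0.86, Ctsh by 0.41, Ctsb by 0.19 and Npc2, a soluble cholesterol carrier of the lysosome, by 0.29 ± 0.11 (SE; adjusted p = 0.71 in limma). Npc2 was at 1.10, 1.10, 1.26 and 1.29 in young, 1.22, 1.36, 1.30, 1.45 and 1.26 in old and 1.83, 1.29, 1.44 and 1.38 in old-OSKM mice. Lower were Ulk1 by -0.18 and Becn1 by -0.10. Without mouse 1 the differences were 0.46 for Ctss, 0.24 for Ctsh, 0.11 for Ctsb and 0.18 for Npc2, and without mice 1 and 4 they were 0.18, 0.09, 0.10 and 0.18. The Becn1 values of old and old-OSKM mice differed by 0.01, and only Ctsb separated the old-OSKM from the young mice without overlap, beside 1.90% of all genes. Without mice 1 and 4 the count of raw p under 0.05 was 3. Of the 6 members above, only Becn1 (difference -0.12) was in that count, and the rest of it came from other members. With all mice, Becn1 had a raw p of 0.049 in limma. Over all 22 alternatives it kept a raw p under 0.05 in 7, the fewest of the 6 members. Without old-OSKM mouse 2, Ctss passed the definition (log2 difference 1.15, adjusted p = 0.49 in limma). Again, no share of all genes was taken with mice left out.

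The spread among mice was wider in the old-OSKM group. The SD exceeded that of old mice in 26 of 33 members (78.8%) and in 77.3% of all genes, and the median SD of the members was 0.09 in young, 0.09 in old and 0.17 in old-OSKM mice. Mouse 1 had the highest of the 13 values for 10 members (8.6% of all genes) and the lowest for 2 (11.3% of all genes). Mouse 4 had the highest for 6 (16% of all genes) and the lowest for 11 (44.8% of all genes), among them Lamp1, Ctsa, Ctsd, Ctsl, Gabarap, Map1lc3a, Wipi1 and Wipi2. Ctsd, for instance, was at 4.05 in mouse 1, the highest of all, and at 3.69 in mouse 4, the lowest of all. Both mice had high Ctss, Psap, Ctsh, Ctsz and Ctsb, in each of which they held the first 2 places. They lay at opposite ends for Ctsd, and for Ctsa mouse 1 held place 2 of the 13 and mouse 4 the last.

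The members were set beside the macrophage markers across mice. Over the 13 mice, 8 of 33 had a Pearson correlation with an adjusted p under 0.05 in a two-sided permutation test with 100000 resamples, 7 positive (Ctss, Psap, Ctsh, Ctsz, Lamp2, Ctsb and Npc2) and 1 negative (Ulk1). The correlation was run on the members only. No share of all genes can therefore be set beside this count, and it does not show a trait particular to these genes. For Ctss r was 0.957 (permutation p = 1e-05, the smallest these permutations can give, adjusted p = 0.00033) and Spearman's rho 0.929 (permutation p = 3e-05, adjusted p = 0.00099). For Psap r was 0.915 (permutation p = 0.00027, adjusted p = 0.0045) and rho 0.685 (permutation p = 0.012, adjusted p = 0.13), and for Ulk1 r was -0.812 (permutation p = 0.0018, adjusted p = 0.015) and rho -0.769 (permutation p = 0.0028, adjusted p = 0.046). By rho, only Ctss and Ulk1 had an adjusted p under 0.05. For Ctsb, Ctsh, Ctsz, Lamp2 and Npc2 the adjusted permutation p of rho was 0.24 to 0.31. Without the 2 mice farthest from the median marker level, which were old-OSKM mice 1 and 4, r was 0.778 for Ctss, 0.659 for Psap and -0.40 for Ulk1, and no member had an adjusted p under 0.05. Ctss and Psap kept a raw permutation p under 0.05 among these 11 mice, whereas for Ctsh, Ctsz and Ctsb, with r of 0.187, 0.154 and 0.170, the relation rested on the 2 mice left out. Ctsd (r = 0.248) and Lamp1 (r = -0.392) did not follow the markers at any adjusted p under 0.05. The part of the macrophage markers in the differences of Ctss, Psap and Ctsh was not tested. Adipocyte markers, also high in old-OSKM mice 1 and 4, were not set beside the members in this way.

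**Figure D4:**
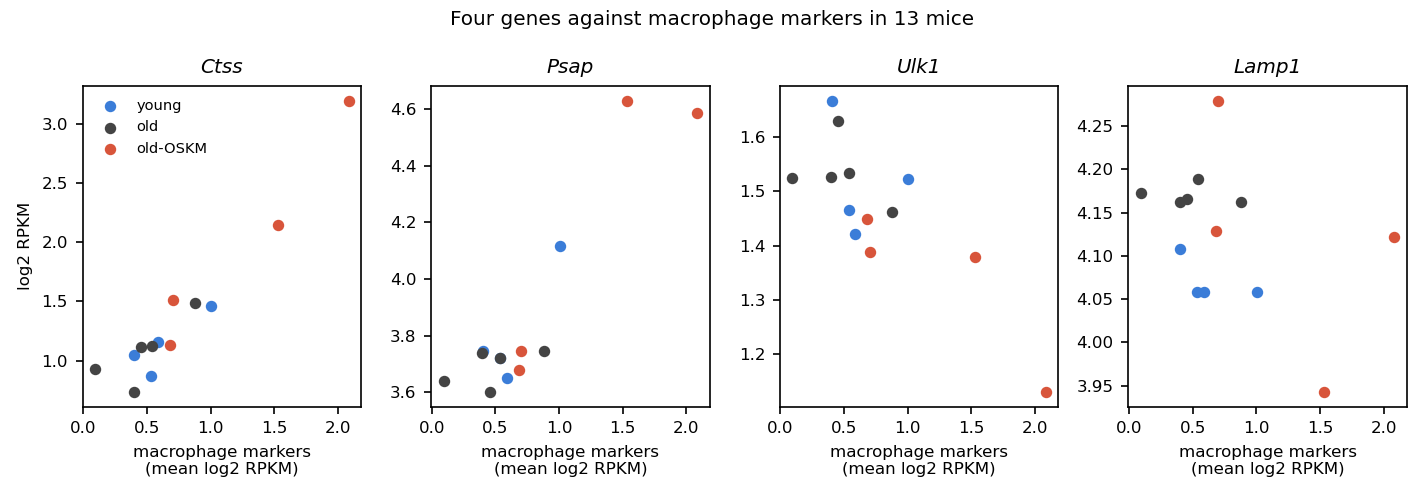
Log2 RPKM of Ctss, Psap, Ulk1 and Lamp1 in each mouse against the mean log2 RPKM of 9 macrophage markers (points colored by group). Old-OSKM mice 1 and 4 are the 2 points farthest right, at 2.08 and 1.53; among the other 11 mice r is 0.778 for Ctss.

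The wider list of 133 lysosome and autophagy genes was read beside the 33. For old against young, 1 gene was called and 5 (3.76%) had a raw p under 0.05, beside 5.52% of all genes, with a median difference of 0.03. The called gene was Ctse, an aspartic protease, higher by 0.95 ± 0.30 (SE; adjusted p = 0.60 in limma) at a very low level of -3.38 in young and -2.43 in old mice. The others were the autophagy receptor Optn (0.31), the V-ATPase subunit Atp6v0a1 (0.20), the galactosylceramidase Galc (0.28) and the mitophagy receptor Fundc1 (0.24), all higher in old mice. For old-OSKM against old, none was called and 5 (3.76%) had a raw p under 0.05, beside 8.07% of all genes, with a median of -0.05. All 5 were lower, namely Gnptg (-0.33), a subunit of the enzyme that tags hydrolases for the lysosome, the Rag GTPase Rragd (-0.35), the beta-galactosidase Glb1 (-0.33), Galc (-0.27) and the endolysosomal channel Tpcn1 (-0.21). Glb1, the enzyme behind senescence-associated beta-galactosidase staining, was at 1.92, 1.83, 1.87, 1.91 and 1.86 in old mice and 1.58, 1.77, 1.85 and 0.98 in old-OSKM mice, the lowest value again being mouse 4. For old-OSKM against young, 3 (2.26%) had a raw p under 0.05, among them Atg10 (-0.30) and Ctse (0.81). The smallest adjusted p of the wider list was 0.60, 0.55 and 0.71 in the 3 comparisons.

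The promoter match was last set beside the differences, as a description. For old-OSKM against old, the 9 members with CACGTG had a median difference of -0.09 (range -0.20 to 0.08) and the 15 without it 0.07 (range -0.24 to 0.92), and a raw p under 0.05 was found in 1 of 9 and 3 of 15. Over all genes the median was -0.04 and the share 8.07%. Ctss (0.92) and Psap (0.47) were among the 15, and fell to 0.24 and 0.02 without old-OSKM mice 1 and 4. Ctsh and Map1lc3a also had a raw p under 0.05, but have no window and are in neither group. For old against young the medians were 0.08 and -0.01, with 1 of 9 and 0 of 15. Over all genes the median was 0.00 and the share 5.52%. Map1lc3a and Becn1, with a raw p under 0.05 there, have no window. Lamp1, Mcoln1 and Ctsd, printed above for their copies, differed by -0.05, 0.02 and 0.02 between old-OSKM and old mice. Ctss and Psap were printed for their large differences, so that their lack of a match is no result. Whether the match and the differences are related was not tested.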

How the data were processed

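The deposited table held log2 RPKM per gene, which the authors made by aligning paired-end reads to mm10 with STAR 2.3.0e, estimating expression with Casper, summing to Entrez genes and quantile normalizing over mice. Read counts were not used here and the depth of each single mouse is not given in the sources used here, so that the precision rests on the spread between mice alone. Because quantile normalization gives equal ranks equal values, 9 of the 33 members had a value repeated between mice. The correction by read totals that the authors applied before testing was not used here.

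All 23366 genes of the 13 mice were fitted in limma 3.58.1 (R 4.3.3) with a term for each of the 3 groups and no covariate. Tests were two-sided, with Benjamini-Hochberg adjustment over all genes. The 3 groups shared a single residual variance per gene, so that each comparison also drew on the spread of the group outside it. Calls required a 1.5-fold difference at a raw p below 0.01. Each mouse is a separate animal. Mice are numbered within groups in the order of the records. Fold changes are ratios of the deposited values with no pseudocount. The script was tested on simulated data. Named genes were the 6 members with the smallest raw p in each comparison, Tfeb, Tfe3, Ctsb, Ctsl, Lamp2 and Sqstm1, the highest 4 and lowest 3 by level, and of the wider list those called or among the 4 smallest raw p; Ctsd, Ctsz, Galc, Glb1, Lamp1 and the genes cited for a rank were added after their values were seen. The members, lists and tests were chosen with earlier results of these data known. Alternatives were the median over genes subtracted from each mouse, genes with a mean log2 above 0, pseudocounts of 1 and 0.1, only the groups compared, eBayes with trend and robust settings, the run of sample numbers or a mean z-score over all genes as a term, and each mouse left out in turn. Promoter windows came from RefSeq (GRCm38.p6). Protein sequences were not used here, and 1 gene of the wider list is not reported by name.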

Additional observations from a re-analysis of the deposited data

Results flagged for a closer look

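Within the groups of 4 or 5 mice, 99 sets of values were examined for a mouse far from the others by Dixon's criterion, which flags about 1 in 20 by chance (4.95 here), and 5 were found, all among young mice. Young mouse 2 had the highest Lamp1 at 4.11, where the others shared 4.06. Young mouse 1 had the lowest Npc1 at 0.030 and the lowest Gabarapl1 at 1.81. Young mouse 4 had the highest Gaa at 1.63 and the lowest Tfeb at 0.45. Lamp1 sits at a level where the normalization gave several mice the same value.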

How the results depend on the processing

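The number of members called stayed at 0 in all 3 comparisons under every alternative except leaving out single mice. Leaving out each mouse in turn gave 0 to 2 members called for old-OSKM against old and 0 to 1 for old-OSKM against young, both highest without old-OSKM mouse 2. The members with a raw p under 0.05 then numbered 1 to 6 (old against young), 3 to 10 (old-OSKM against old) and 2 to 8 (old-OSKM against young), and the wider list 2 to 13, 2 to 18 and 2 to 10. For old against young, the 6 members and 13 wider genes came without old-OSKM mouse 4, and 1 member remained without young mouse 1, young mouse 3 or old mouse 4. For old-OSKM against old, 3 members remained without mouse 1 and without mouse 4, and the 18 wider genes came without mouse 3. Without old-OSKM mice 1 and 4 together the members were 6, 0 and 3, and the wider list gave 15 for old against young and 9 for old-OSKM against young. Only the groups compared gave 6, 3 and 1 members and 16 wider genes for old against young and 1 for old-OSKM against young. The run of sample numbers as a term gave 5 members and 3 wider genes for old against young and 2 members for old-OSKM against young. The mean z-score as a term gave 9 wider genes for old against young, 1 member and 1 wider gene for old-OSKM against old and 3 members for old-OSKM against young. Genes with a mean log2 above 0 gave 3 wider genes for old against young and 0 for old-OSKM against young. This setting leaves out low genes such as Ctse, which was in both counts over all genes, and limma was refitted on the remaining genes. For old against young, leaving out old-OSKM mice removes none of the mice compared, so that the differences stay the same and only the shared variance changes. Without old-OSKM mice 1 and 4 the difference of Map1lc3a stayed at 0.32, and its raw p in limma went from 0.0089 to 0.00082. Beyond these the cause was not tested. No share of all genes was taken under the alternatives, so that these counts do not show a trait particular to the members or the wider list. Of the 8 members related to macrophage markers, 0 remained without the 2 farthest mice. Subtracting the median is nearly void after quantile normalization. No result changed direction. Among the named members, Map1lc3a in old against young kept a raw p under 0.05 in all 22 alternatives, with 0.26 to 0.36 as its range. No paired analysis was possible because the labels give no replicate numbers shared between groups.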
